A study of Mus musculus with 4 samples.

Results

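*Cd96*, *Tigit* and *Cd226* encode receptors of T cells and NK cells that bind nectins and nectin-like molecules, and *Pvr* (CD155) encodes a ligand that all of these receptors share. These 4 genes, of 47729 listed in the count table, were followed in RNA-seq of sorted Treg cells. They were selected on the comparison between the genotypes, so their differences between WT and TfR1-deficient libraries are given as a description, with standard errors and without p-values. RNA was sequenced from 4 libraries, 2 from WT mice, *Tfrc* +/+ *Foxp3* YFP-Cre/+, and 2 from mice labelled TfR1-deficient, with the genotype *Tfrc* fl/fl *Foxp3* YFP-Cre/+. All mice were female and on the C57BL/6 strain, all carried 1 Cre allele, and all were age-matched young adults by the reporting summary of the study. Cre and YFP are made from the *Foxp3* locus, so Cre was present in the CD25+YFP+ cells that were sorted, while Treg cells that inactivated the X chromosome with Cre are not sorted. The labels name the spleen as the source, whereas a legend of the study names spleens and lymph nodes. The replicates are described as biological, and nothing more says how they were separated, so p-values measure the spread between these samples.

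The receptors compete for the same ligands. TIGIT, which binds PVR with high affinity, and CD96 carry inhibitory motifs in their cytoplasmic tails, whereas CD226 (DNAM-1) delivers a costimulatory signal together with the integrin LFA-1. In Treg cells TIGIT marks an activated and highly suppressive subset, and *Tigit* is a known target of Foxp3.

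The libraries held from 10841939 to 17278448 counts, and 12536 genes passed the count filter, among them all 4 members. *Tfrc* itself had TMM-scaled counts per library size (CPM) of 50.8 and 54.1 in WT and 56.1 and 48.3 CPM in the others. Its gene count did not separate the genotypes, and every direction below rests on the labels. A count over the whole gene cannot show whether the floxed exons were lost, and exons were not counted separately. The 7 Treg and T-cell markers (*Foxp3*, *Il2ra*, *Cd4*, *Cd3e*, *Cd3d*, *Ikzf2*, *Ctla4*) were counted in each library. Macrophage transcripts stood apart in 2 libraries: 12 markers summed to 756 CPM in WT replicate 1 and 2540 CPM in the library labelled TfR1-deficient replicate 2, but only to 26.4 and 31.6 CPM in the remaining 2, so that this difference crosses the genotypes. *Vcam1*, the most abundant of the 12, was at 273 and 849 CPM against 3.56 and 4.38 CPM, and *Mertk* was at 0 in WT replicate 2.

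*Cd96* was the most highly counted member. WT replicates 1 and 2 had 471 and 541 CPM, against 252 and 239 CPM for replicates 1 and 2 labelled TfR1-deficient. Both WT libraries lay above both others with a wide gap. The WT mean was 506 ± 49.8 CPM and the other mean 246 ± 9.43 CPM (SD, n = 2 each), or 48.6% of WT, and the log2 fold change from edgeR was -1.04 (standard error 0.15). The 4 differences between single libraries of the 2 genotypes ran from -1.18 to -0.90 on the log2 scale, while the WT replicates differed by 0.20 and the replicates labelled TfR1-deficient by 0.078. Over all 12536 tested genes, 235 had a larger decrease than *Cd96*. Among the 464 with a mean CPM at least as high, 1 did, *Nt5e*, which encodes the ecto-nucleotidase CD73 (log2 fold change -1.07). *Nt5e* is named after its value was seen. Both ranks only describe a gene that this comparison chose. In bulk RNA, fewer cells with a transcript and less of it per cell cannot be told apart.

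*Tigit* had 92.0 and 84.3 CPM in WT replicates 1 and 2, against 55.0 and 45.0 CPM for the pair labelled TfR1-deficient. The genotypes did not overlap, with the lowest WT library 0.62 above the highest of the others on the log2 scale. The means were 88.1 ± 5.47 and 50.01 ± 7.02 CPM (SD, n = 2 each), 56.7% of WT, a log2 fold change of -0.82 (standard error 0.17). Over all tested genes 436 had a larger decrease, and among the 3299 at least as abundant 18 did. These ranks are again a description of a chosen gene.

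*Pvr*, the ligand, had 49.8 and 54.0 CPM in WT replicates 1 and 2, against 40.1 and 36.1 CPM for the pair labelled TfR1-deficient. Again both WT libraries were higher, with a gap of 0.31 on the log2 scale. The log2 fold change was -0.45 (standard error 0.16), and the mean of the libraries labelled TfR1-deficient was 73.4% of WT.

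*Cd226*, the costimulatory receptor, had the smallest difference of the 4. Its values were 39.6 and 42.0 CPM in WT replicates 1 and 2, against 34.1 and 33.7 CPM for the pair labelled TfR1-deficient. The WT libraries were higher, but the 95% counting intervals of WT replicate 1 (36.2 to 43.3 CPM) and of the library labelled TfR1-deficient replicate 1 (31.4 to 36.9 CPM) overlapped. The log2 fold change was -0.27 (standard error 0.16), the mean of the libraries labelled TfR1-deficient being 83.0% of WT. Such intervals are exact Poisson intervals and cover counting error only. For *Cd96*, *Tigit* and *Pvr* no counting interval of a WT library met one of a library labelled TfR1-deficient.

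**Figure D1:**
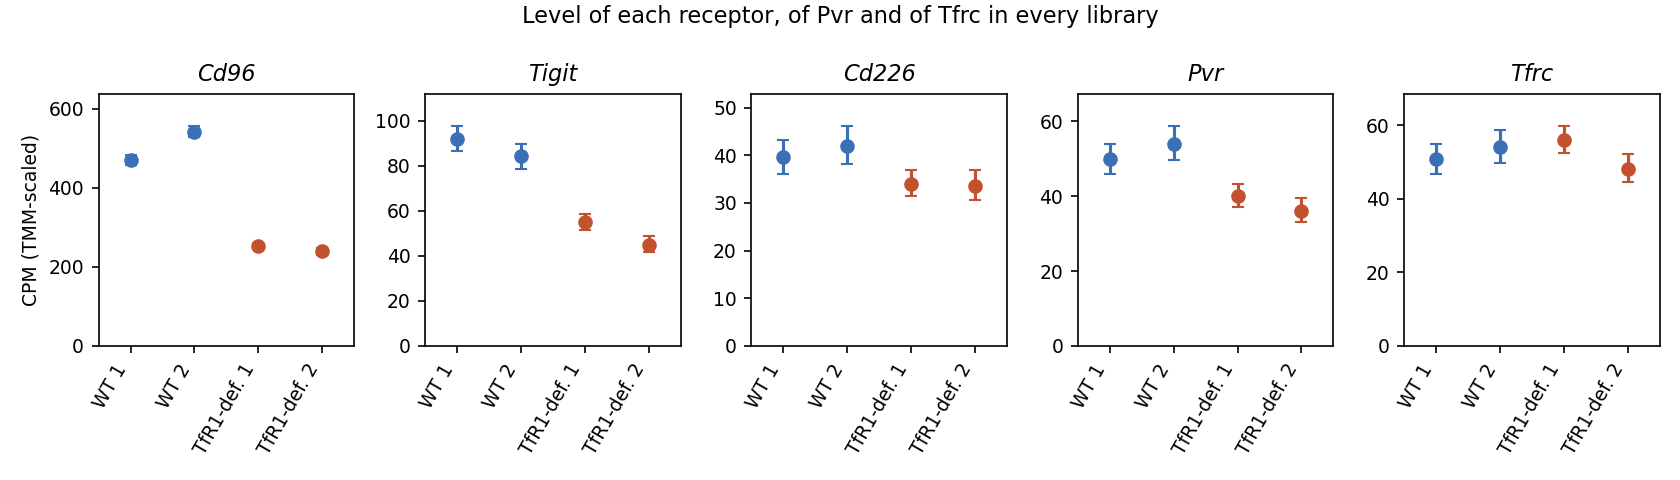
Level of *Cd96*, *Tigit*, *Cd226*, *Pvr* and *Tfrc* in CPM (vertical axes from 0, 1 scale per gene) in the 2 WT libraries (blue) and the 2 libraries labelled TfR1-deficient (orange), with 95% Poisson counting intervals. *Cd96* sits at 471 and 541 CPM against 252 and 239 CPM, *Tigit*, *Pvr* and *Cd226* show smaller gaps in the same direction, and *Tfrc* overlaps between the genotypes.

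For 4 of the 4 members, both TfR1-deficient labelled values lay under both WT values, as they did for 18.9% of all tested genes, and the reverse held for 16%. Nothing is read from this count, because the members were chosen by this comparison. Their median log2 fold change was -0.63, against 0.0085 for all tested genes.

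Divided by exon length (RPKM, from the CPM and the summed exons of GENCODE vM1), the order of the 4 genes was the same in each library, and neighbours in that order were separated by more than the spread between replicates. *Cd96* was at 216 and 248 RPKM in WT and at 116 and 109 RPKM in the libraries labelled TfR1-deficient, and *Tigit* at 95.5 and 87.5 against 57.1 and 46.8 RPKM. *Cd226* was at 16.8 and 17.8 against 14.5 and 14.3 RPKM, and *Pvr* at 9.20 and 9.98 against 7.41 and 6.67 RPKM. With these lengths, transcripts of the inhibitory receptors were more abundant than those of *Cd226* in each of the 4 libraries. The annotation release used for counting is not given, so the lengths of the counted genes may differ from these.

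Ratios of inhibitory to costimulatory receptor transcripts within a library rest on the comparison that chose the genes and are given as a description. The ratio of *Cd96* to *Cd226* per length was 12.8 and 13.9 in WT replicates 1 and 2 and 7.99 and 7.66 in the libraries labelled TfR1-deficient. The ratio of *Tigit* to *Cd226* was 5.68 and 4.91 in WT and 3.95 and 3.28 in the libraries labelled TfR1-deficient. Neither ratio overlapped between the genotypes, and both are free of the scaling between libraries. The ratio of *Cd96* to *Tigit* did overlap, at 2.26 and 2.83 against 2.02 and 2.34.

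The Treg and T-cell markers were themselves lower in the libraries labelled TfR1-deficient, where the 7 summed to 3760 and 3370 CPM, than in WT, where they summed to 4650 and 4360 CPM, a log2 difference of the means of -0.34. Taken as a percentage of that sum, *Cd96* was at 10.1% and 12.4% in WT and at 6.71% and 7.10% in the libraries labelled TfR1-deficient, and *Tigit* at 1.98% and 1.93% against 1.46% and 1.34%. On this scale both inhibitory receptors had no overlap between the genotypes, which is a description, because this comparison chose the genes. *Cd226* did overlap, at 0.851% and 0.963% against 0.906% and 0.999%, and *Pvr* was at 1.07% and 1.24% against 1.07% and 1.07%. Of the 7 markers, 5 were lower without overlap, where 18.9% of all tested genes were. They were *Foxp3* (194 and 130 against 122 and 114 CPM), *Il2ra* (1150 and 1110 against 1090 and 853 CPM), *Cd4*, *Cd3e* and *Ctla4* (407 and 427 against 241 and 235 CPM). Without *Ctla4* the log2 difference of the percentages was -0.75 for *Cd96*, -0.52 for *Tigit*, -0.15 for *Pvr*, which then no longer overlapped, and 0.030 for *Cd226*, which did. The part of the lower marker sum in the members' values was not tested.

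NK cells and CD8 T cells carry CD96 and CD226, and platelets CD226, so their markers were read beside these genes. The 8 NK markers summed to between 5.06 and 13.9 CPM in each library, with *Klrk1* at 0.75 to 5.91 CPM, *Klrb1c* at 1.78 to 2.85 CPM and *Eomes* at 1.06 to 2.41 CPM, and the defining marker *Ncr1* had at most 10 counts. *Klrd1* and *Klre1* were at 0 in WT replicate 1 and in the library labelled TfR1-deficient replicate 1, and *Klrc1* in WT replicate 1. The 2 CD8 markers summed to 11.1 to 12.6 CPM, nearly all from *Cd8b1*, with *Cd8a* at 11 counts or fewer. The 5 platelet markers summed to 2.21 to 4.69 CPM, led by *Itga2b*, with *Pf4* at 0 in 3 libraries. B-cell markers summed to 25.4 to 42.4 CPM, mostly from *Cd79b*, with *Ms4a1* at 5 counts or fewer and *Pax5* at 0 in both WT libraries. The NK, CD8 and platelet sums each lay below the values of *Cd96* and *Cd226* in the same library, while the B-cell sum was above *Cd226* in WT replicate 2 (42.4 against 42.0 CPM) and in the library labelled TfR1-deficient replicate 1 (37.1 against 34.1 CPM). Sums and receptor values come from different genes, so their order does not give the share of such cells in *Cd96* or *Cd226*. That share was not tested.

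The members were also compared between libraries with a like level of macrophage transcripts. Within the pair of libraries that held them, WT replicate 1 and the library labelled TfR1-deficient replicate 2, the log2 difference was -0.98 for *Cd96*, -1.03 for *Tigit*, -0.46 for *Pvr* and -0.23 for *Cd226*. Within the other pair it was -1.10, -0.61, -0.43 and -0.30 in the same order of genes. Each member was lower in the library labelled TfR1-deficient in both pairs, which are single libraries and carry no test. The members were chosen by the comparison of these same libraries, so the shared direction is only a description. The part of the macrophage transcripts in the members' values was not tested.

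**Figure D2:**
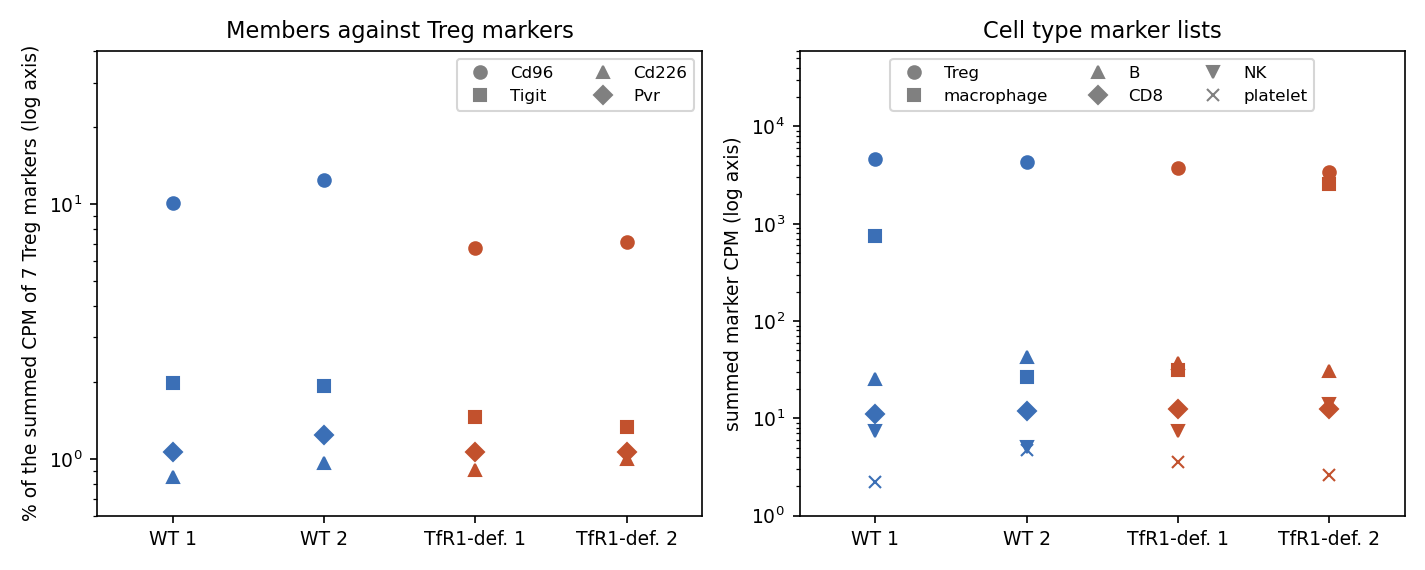
Left, the 4 members as a percentage of the summed CPM of 7 Treg and T-cell markers in each library (log axis), where *Cd96* (6.71% to 12.4%) and *Tigit* separate the WT libraries (blue) from those labelled TfR1-deficient (orange) and *Cd226* does not. Right, the summed CPM of 6 marker lists (log axis), where macrophage markers reach 756 and 2540 CPM in 1 library of each genotype.

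*Cd96* and *Tigit* lie on the chromosome that also carries *Tfrc*. In the GENCODE vM1 annotation of NCBIM37 (mm9, the build of the study's methods; the submitters' processing notes list mm10), *Tfrc* is at chr16:32609006-32632880, *Tigit* at chr16:43648974-43664297 on the minus strand, 11.02 Mb away, and *Cd96* at chr16:46035770-46120364 on the minus strand, 13.4 Mb away. *Cd226* is at chr18:89366823-89439593 and *Pvr* at chr7:20488927-20506509. No annotated gene overlaps *Cd96*, *Tigit* or *Cd226*, and *Pvr* overlaps 2 opposite-strand genes outside its exons (*Gm16184* and *Gm16251*), which had at most 3 counts in any library. Any stretch of chromosome 16 that came with the floxed allele would be carried by the same mice, so linkage and genotype cannot be told apart for *Cd96* and *Tigit*. The *Tfrc* fl/fl mice were backcrossed to C57BL/6.

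Of the 22 other tested genes from 1 Mb before *Tigit* to 1 Mb past *Cd96*, 10 had both TfR1-deficient labelled values under both WT values (45.5%) and 1 was higher, with a median log2 fold change of -0.21. Only the 11604 of 12536 tested genes found in GENCODE vM1 could be placed, and the windows and the chromosome leave out the rest. Over the 357 tested genes of chromosome 16 without *Tfrc*, *Tigit* and *Cd96*, 69 were lower in this sense (19.3%) and 69 higher, with a median of 0.012. In the stretch from *Tfrc* to 1 Mb past *Cd96*, 20 of 70 other tested genes were lower in this sense (28.6%) and 11 higher, with a median of -0.039. The first window was laid around members chosen for being lower, and its 22 genes are also among the 70. Both counts are therefore a description, and the 28.6% is not separate from the 45.5%. In edgeR's quasi-likelihood test at an unadjusted p under 0.05 and a log2 fold change of 0.5 or more in size, which called 2.48% of all tested genes lower and 1.60% higher, 2 of the 22 were called lower and 0 higher, and 6 of the 70 were called lower and 3 higher. At an adjusted p under 0.05 edgeR called 0% of all tested genes, and DESeq2 called 33 lower and 6 higher. Of the 12536 tested genes, 655 had an unadjusted p under 0.05 in edgeR. That is close to the share that such a threshold passes when no gene differs.

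Of the tested genes that could be placed, the one nearest to *Cd96* had the lowest p-value of all 12536 tested genes. *Plcxd2*, of the phospholipase C-like X domain family, begins 25.4 kb downstream of the 3′ end of *Cd96* on the same strand. It had 95.4 and 96.8 CPM in WT replicates 1 and 2, against 27.9 and 26.7 CPM for the pair labelled TfR1-deficient. The replicates lay close together and the genotypes far apart, and the log2 fold change was -1.81 (standard error 0.14, unadjusted p = 4.03e-05, adjusted p = 0.266 in edgeR). A low-count opposite-strand gene, *Gm15638*, overlaps *Plcxd2* and was lower too (0.982 and 1.41 against 0.692 and 0.365 CPM, log2 fold change -1.14, unadjusted p = 0.165 in edgeR). Since the strand setting of the counting is not given in the sources used here, reads of the 2 cannot be told apart.

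*Slc35a5*, a nucleotide sugar transporter gene, was at 42.6 and 45.9 CPM in WT, against 24.1 and 18.0 CPM for the pair labelled TfR1-deficient, a log2 fold change of -1.07 (standard error 0.22, unadjusted p = 0.0043, adjusted p = 0.911 in edgeR). Further genes of inhibitory pathways lie in this stretch, *Btla*, which encodes a receptor for HVEM, and *Cd200*, which encodes the ligand of CD200R1, both chosen once their values had been seen. *Btla* was at 146 and 124 against 101 and 97.4 CPM (log2 fold change -0.45, unadjusted p = 0.028, adjusted p = 0.911 in edgeR). *Cd200* was at 211 and 205 against 191 and 163 CPM (log2 fold change -0.24, unadjusted p = 0.171 in edgeR). The largest values in the other direction were those of *Cd200r3* (log2 fold change 0.84, at 2.48 CPM or less, and of a family of similar neighbouring genes that may share reads), *Atg3* (0.058) and *Spice1* (0.045), and *Zbtb20*, beside *Tigit*, was at -0.042.

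**Figure D3:**
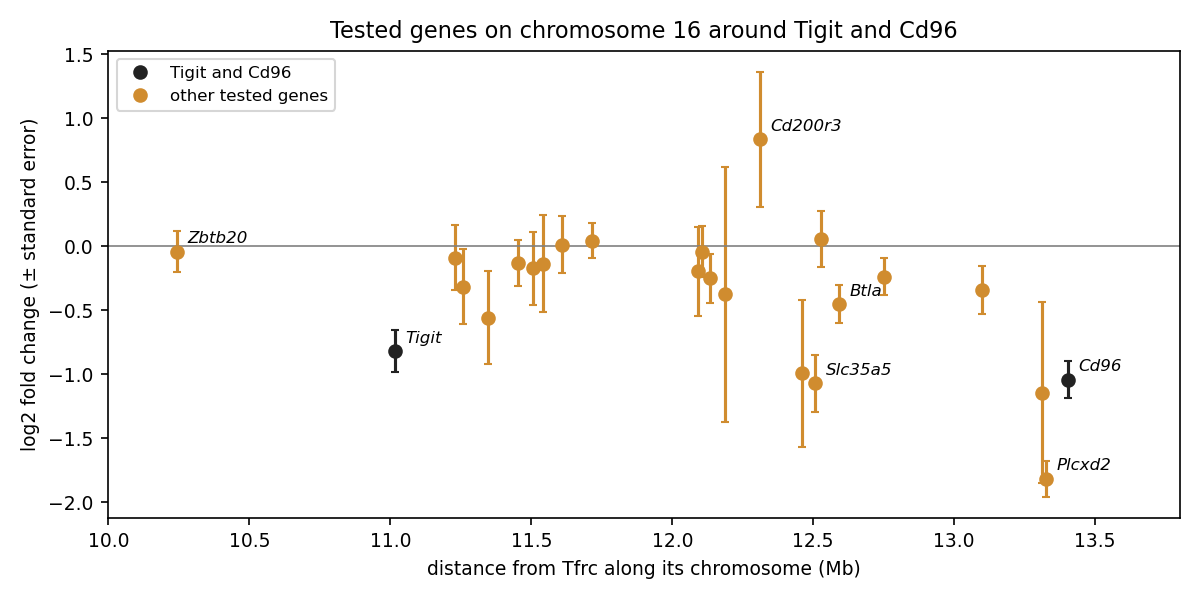
Log2 fold change with its standard error (vertical axis, libraries labelled TfR1-deficient against WT) of the tested genes around *Tigit* and *Cd96* by distance from *Tfrc* in Mb (horizontal axis). *Plcxd2*, *Slc35a5*, *Cd96* and *Tigit* lie between -1.81 and -0.82, and most other genes of the stretch between -0.56 and 0.058.

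The promoter windows of the 2 chromosome 16 receptors are shown. *Cd226* and *Pvr* were also lower in the same libraries, and no window is shown for them. The windows shown run from 250 bases before to 50 bases after the RefSeq transcript start on GRCm38.p6, 5′ to 3′ on the minus strand, *Cd96* at chr16:46120199-46120498 and *Tigit* at chr16:43664135-43664434. Capitals mark a match on either strand to the RUNX core TGTGGT, the forkhead core TGTTTAC, the NFAT core TGGAAA or the Maf core TGCTGAC, none of which overlap another here.
Cd96: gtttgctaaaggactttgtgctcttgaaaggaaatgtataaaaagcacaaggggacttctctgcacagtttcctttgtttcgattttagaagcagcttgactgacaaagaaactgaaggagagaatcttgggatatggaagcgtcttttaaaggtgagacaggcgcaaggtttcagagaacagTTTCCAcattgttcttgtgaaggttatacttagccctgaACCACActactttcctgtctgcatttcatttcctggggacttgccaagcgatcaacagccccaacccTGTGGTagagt
Tigit: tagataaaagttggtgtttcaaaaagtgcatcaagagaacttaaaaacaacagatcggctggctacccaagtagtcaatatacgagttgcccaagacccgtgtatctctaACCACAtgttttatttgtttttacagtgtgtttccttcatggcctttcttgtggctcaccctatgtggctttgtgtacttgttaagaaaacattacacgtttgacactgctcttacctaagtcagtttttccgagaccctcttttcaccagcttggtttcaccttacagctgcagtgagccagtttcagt

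Counted from 1 at the 5′ end, the *Cd96* window holds the RUNX letters at bases 223 (opposite strand) and 290 and the NFAT letters at base 184 (opposite strand). The *Tigit* window holds the RUNX letters at base 111 (opposite strand). Promoter windows of chromosome 18, which carries *Cd226*, were left out. Of the 32544 distinct windows of this length that remained, 16.7% hold the RUNX letters and 21.5% the NFAT letters. The forkhead letters are in 3.66% and the Maf letters in 4.65%. A match describes letters, not binding.

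Apart from *Cadm1*, the other tested ligands and partners of this family were at 4.42 CPM or less in each library. Of a list of 11 nectin, nectin-like and related genes (*Nectin1* to *Nectin4*, *Cadm1* to *Cadm4*, *Crtam*, *Pvrig* and *Afdn*), 10 were matched to an identifier and 6 passed the count filter. Of these 6, edgeR called 0 higher and 0 lower, and 0 had an unadjusted p under 0.05; DESeq2 also called 0. *Nectin2*, the second ligand of CD226 and TIGIT, was at 0.491 and 1.03 CPM in WT, against 1.33 and 2.04 CPM for the pair labelled TfR1-deficient, higher in both (log2 fold change 1.14, standard error 0.67, adjusted p = 0.934 in edgeR). *Pvr*, not on this list, was above every matched gene of it in the WT libraries and in the library labelled TfR1-deficient replicate 1. In the library labelled TfR1-deficient replicate 2, *Cadm1* was above *Pvr*, at 39.3 against 36.1 CPM. *Nectin3*, which lies close to *Cd96*, had 2 counts in 1 library and 0 in the other 3, where a count of 0 allows up to 0.281 CPM.

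*Cadm1*, which encodes the nectin-like ligand of CRTAM, followed the macrophage libraries. It was at 9.17 and 39.3 CPM in the 2 libraries with macrophage transcripts and at 0 and 0.173 CPM in the other 2, and it did not differ between the genotypes beyond this spread (log2 fold change 2.09, standard error 2.32, adjusted p = 0.955 in edgeR). *Nectin1* (10 and 11 counts against 1 and 0) and *Nectin4* (16 and 22 counts against 0 and 5) had the same order. *Crtam* was at 1.23 and 2.34 CPM in WT, against 1.44 and 3.14 CPM for the pair labelled TfR1-deficient, and *Afdn*, which encodes the nectin-anchoring protein afadin, at 4.42 and 1.97 against 3.23 and 2.63 CPM. Both overlapped between the genotypes.

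The signalling list held 10 genes that act with or below these receptors, all tested. Of these, 2 were lower and 2 higher without overlap, near the 18.9% and 16% of all tested genes. The median log2 fold change of the 10 was 0.010. By edgeR at an unadjusted p under 0.05, 1 of the 10 was called lower, against 2.48% of all tested genes. The called gene was *Inpp5d*, which encodes SHIP1, the inositol phosphatase that TIGIT recruits. It was at 234 and 219 CPM in WT, against 174 and 130 CPM for the pair labelled TfR1-deficient, a log2 fold change of -0.57 (standard error 0.19, unadjusted p = 0.026, adjusted p = 0.911 in edgeR). The call was lost with the replicate block (unadjusted p = 0.054) and without WT replicate 1 (0.096), WT replicate 2 (0.059) or the library labelled TfR1-deficient replicate 2 (0.136), while the direction held in each edgeR fit.

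*Itgal*, the alpha chain of LFA-1, which associates with CD226, was at 1010 and 952 CPM in WT, against 770 and 691 CPM for the pair labelled TfR1-deficient. At a log2 fold change of -0.43 (standard error 0.14, unadjusted p = 0.027, adjusted p = 0.911 in edgeR) it was under the minimum change. Its partner *Itgb2* was at 1330 and 1490 against 1380 and 1430 CPM, with a log2 fold change near 0. The largest value in the other direction was that of *Arrb2*, which encodes beta-arrestin 2, an adaptor of TIGIT signalling, at 251 and 223 against 273 and 286 CPM (log2 fold change 0.24, adjusted p = 0.934 in edgeR), and *Ptpn6* (SHP1) was at 387 and 392 against 450 and 453 CPM (0.21, adjusted p = 0.934). For *Fyn*, *Vav1*, *Lcp2*, *Grb2* and *Ptpn11*, the kinase, exchange factor, adaptors and phosphatase of these pathways, the log2 fold changes lay between -0.13 and 0.23 and the genotypes overlapped.

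**Figure D4:**
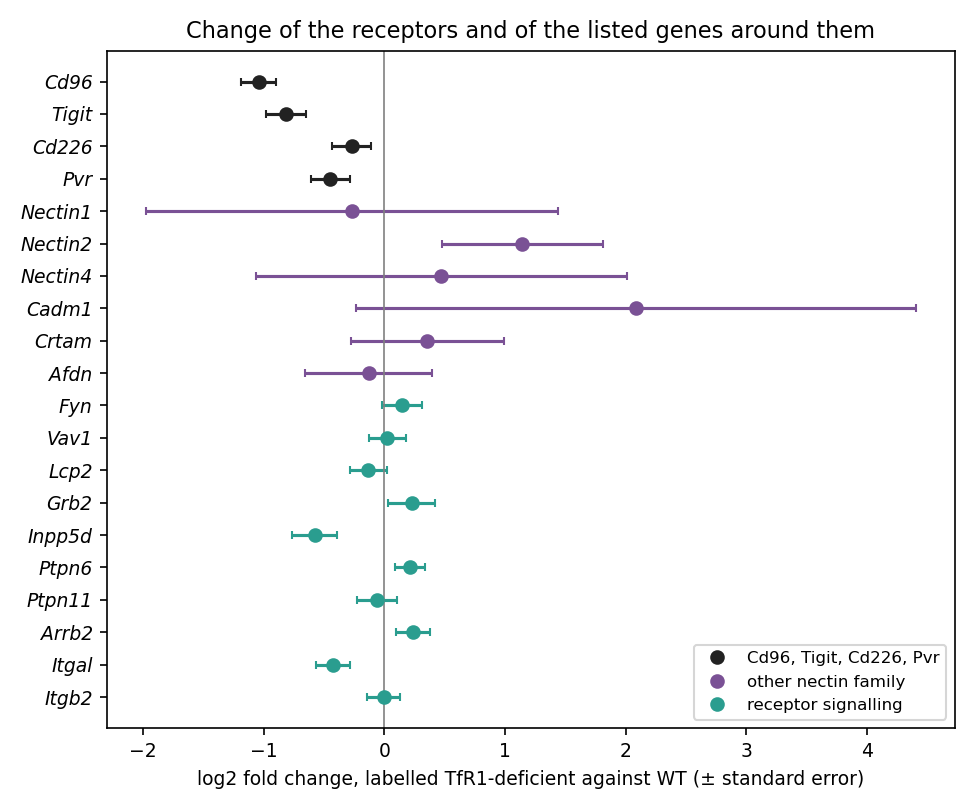
Log2 fold change (horizontal axis, libraries labelled TfR1-deficient against WT, bars are standard errors from edgeR) of the 4 members (black), the 6 tested nectin family genes (purple) and the 10 signalling genes (green). *Cd96* at -1.04 and *Tigit* at -0.82 lie lowest, *Inpp5d* and *Itgal* are the lowest signalling genes, and the nectin family genes have wide errors from low counts.

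The likeness of other genes to each receptor was measured as the root mean square difference of log2 CPM, centred on the gene's mean, over the 4 libraries. The 3 tested genes nearest to *Cd96* were *D130040H23Rik* (0.062), *Fam129b* (0.072) and *Ccr6* (0.079), the last a chemokine receptor gene at 46.1 and 47.0 CPM in WT, against 24.1 and 23.9 CPM for the pair labelled TfR1-deficient. Those nearest *Tigit* were *Fchsd1* (0.018), *Lclat1* (0.034) and *Eea1* (0.039), and those nearest to *Cd226* were *Zfp143* (0.010), *Prpf6* (0.012) and *Traf5* (0.012). None of these 9 genes lies on chromosome 16, which holds 357 of the 11604 placed tested genes besides *Tfrc*, *Tigit* and *Cd96*. With so small a share, nothing is read from this. *Tigit* came 66th in the order from *Cd96* (0.18), *Pvr* 379th and *Cd226* 1188th. Each likeness rests on 4 values a gene and is a description.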

How the data were processed

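Per the labels and the study's methods, RNA of sorted Treg cells was made into libraries by a NEBNext Single Cell/Low Input kit. Their processing notes list Trim Galore 0.6.7, STAR 2.7.9a, featureCounts and mm10, while the methods name mm9; strand setting and annotation release are not given in the sources used here. The authors deposited raw counts of reads per Ensembl gene, neither normalized nor pooled, and all 4 columns were used. Gene symbols were found for 32799 of 47729 identifiers, with RefSeq synonyms (GRCm38.p6) for renamed genes; *Pvr* and *Nectin2*, which share an older name, were matched by identifier. Amino acid sequences were not used here.

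After filterByExpr and TMM scaling, genotypes were compared by quasi-likelihood in edgeR 4.0.16 (R 4.3.3), genotype being the only term, with Benjamini-Hochberg adjustment. Called means an unadjusted p under 0.05 with a log2 fold change of 0.5 or more in size, as in the study. Standard errors were taken as log2 fold change over the square root of F. Log2 CPM used a prior count of 2. The fit was tested on simulated counts. Libraries held 10841939 to 17278448 counts, and intervals cover counting error only. Replicates differed beyond counting noise (chi-square per degree of freedom 32.1 in WT and 50.4 in the libraries labelled TfR1-deficient).

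The members, lists and rules were chosen with earlier results of these data known. Genes named are the members, *Tfrc*, the tested nectin family genes, signalling genes that passed or moved most, the 3 genes most like each receptor, the 3 largest changes in each direction around *Tigit* and *Cd96*, and the top marker of each cell type list; other named genes are marked or shown for completeness. Alternatives were DESeq2 1.42.0, other scalings, other count filters, a replicate block and leaving out each library. Marker genes not named enter as sums, and 1 gene is not reported here.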

Additional observations from a re-analysis of the deposited data

How the results depend on the processing

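The log2 fold changes of *Cd96*, *Tigit*, *Cd226* and *Pvr* stayed negative in each alternative (DESeq2, DESeq2 size factors, total library size, both other count filters, the replicate block and each library left out). With a library left out they ran from -1.12 to -0.94 for *Cd96*, -0.94 to -0.68 for *Tigit*, -0.29 to -0.23 for *Cd226* and -0.49 to -0.38 for *Pvr*. In single pairs of libraries, chosen after seeing the data, *Tigit* was at -1.03 (WT replicate 1 and the library labelled TfR1-deficient replicate 2) and -0.61 (the other 2).

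Over all genes, 311 were called lower and 200 higher. The replicate block gave 141 and 70, 0 signalling genes in place of 1, and no other change of a list. Libraries with the same number did not deviate together (correlation of -0.61 across genes). That value includes the macrophage transcripts, high in WT replicate 1 and in the library labelled TfR1-deficient replicate 2. It therefore cannot decide whether the replicate numbers mark pairs. A crossed pairing, added after seeing the data, gave 519 lower, 596 higher and 1 nectin family gene. With at least 1 count in any library as the filter, 650 were called higher and 1 nectin family gene in place of 0, *Cadm1* in both cases. With a library left out, 131 (without WT replicate 1) to 382 genes were called lower and 169 to 353 (without the library labelled TfR1-deficient replicate 1) higher, and 0 to 1 signalling genes; an arm left with 1 library is assumed to vary like the other. The cause of these shifts was not tested. At an adjusted p under 0.05, edgeR called 0 genes, also with the block or a library left out; DESeq2 called 33 lower and 6 higher, edgeR with the crossed pairing 265 and 174, and edgeR with the filter of 1 count 95 and 167. With 2 libraries a genotype, low genes such as the nectins have no useful precision.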
